A study of Caenorhabditis elegans with 2 samples.

Results

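The regions described here lie between divergent protein-coding genes, which are neighbours on opposite strands that point away from each other and so share the gap between their starts. Of 16958 regions in the authors' pooled list of peaks and background for the protein encoded by T07F8.4, 717 had their summit in such a gap. The gene starts were under 2000 bp apart, and no tRNA, snoRNA or snRNA gene stood within 100 bp of the summit. Pairs with an rpl- or rps- ribosomal protein gene were left out. Of the 717 regions, 52 were also in the authors' reproducible list of 621 regions, selected by the irreproducible discovery rate (IDR), and these are called reproducible below. The 52 regions lay in the gaps of 51 gene pairs.

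The material was whole young adult hermaphrodites of Caenorhabditis elegans strain OP478, with 2 biological replicates as the single group. The strain has the genotype unc-119(tm4063) III; wgIs478, and its transgene, with an unc-119 rescue, gives the T07F8.4 protein a GFP-FLAG tag at the C terminus. Animals were taken 64 hours after synchronization of L1 larvae that had been starved after bleaching, chromatin was sonicated, and an antibody against GFP was used for the immunoprecipitation. All animals came from 1 transgenic line, and the promoter of the transgene is not named in the labels. Control material was not analysed here, so no comparison of the regions with a control was made. How control material entered the authors' peak calling was not examined.

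In a divergent pair, 1 stretch of chromatin lies upstream of both genes, and a protein bound there is upstream of both at once. In C. elegans the start of many mRNAs is replaced by a spliced leader, so an annotated gene start is often the place where the leader is joined and not where transcription begins. Many C. elegans genes also lie in operons, runs of same-strand genes transcribed together from a promoter ahead of the first gene. Head-to-head pairs of broadly expressed genes are a familiar feature of compact genomes.

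The sequences at 8 summits show the DNA behind the highest signals. They belong to the 8 reproducible regions with the highest signal, read from the plus strand of RefSeq's copy of WBcel235 (ce11) to 50 bases on each side of the summit, or to the gene start where that came first. Capitals mark a match on either strand to 5 of the short sequences counted further on, whereas CGCG, also counted there, is left in lower case. The matches are AGACGCAG and GTTCGA in sec-61.G/F32D8.7, CACTCG in K01G5.10/tasp-1, GGCGCA in that pair and in ears-2/uncp-18, and ACGCGC in par-5/M117.3. Each pair is written with its minus-strand gene first. The stretches lie, in the order shown, at chrIII:8043911-8044011, chrIII:10759199-10759299, chrIII:5018270-5018370, chrV:10897278-10897378, chrII:7200310-7200410, chrIV:390469-390535, chrIV:11822032-11822132 and chrIII:1619073-1619173.
K12H4.6/K12H4.5: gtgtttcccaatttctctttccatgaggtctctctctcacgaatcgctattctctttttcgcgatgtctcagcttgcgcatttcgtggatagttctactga
K01G5.10/tasp-1: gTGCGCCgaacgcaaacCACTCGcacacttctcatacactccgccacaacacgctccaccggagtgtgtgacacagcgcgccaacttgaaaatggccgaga
larp-1/wip-1: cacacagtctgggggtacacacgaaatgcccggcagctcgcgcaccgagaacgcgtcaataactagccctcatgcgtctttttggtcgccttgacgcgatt
sec-61.G/F32D8.7: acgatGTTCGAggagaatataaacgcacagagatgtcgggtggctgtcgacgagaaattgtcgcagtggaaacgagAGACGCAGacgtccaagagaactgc
E04F6.6/pcrg-1: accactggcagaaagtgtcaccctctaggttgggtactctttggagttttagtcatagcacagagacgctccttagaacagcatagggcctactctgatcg
ears-2/uncp-18: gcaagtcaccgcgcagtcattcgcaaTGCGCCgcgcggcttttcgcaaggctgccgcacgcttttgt
par-5/M117.3: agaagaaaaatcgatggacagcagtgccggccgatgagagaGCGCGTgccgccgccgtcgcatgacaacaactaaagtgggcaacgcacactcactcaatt
Y22D7AL.10/hsp-60: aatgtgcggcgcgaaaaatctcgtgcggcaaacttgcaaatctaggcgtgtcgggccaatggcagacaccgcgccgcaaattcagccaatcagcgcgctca

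Regions between divergent genes were in the reproducible list at a share of 7.25% (52 of 717), with a 95% Wilson interval from 5.57% to 9.39%. Among all 16935 nuclear regions of the pooled list the share was 3.54%, and among the 16221 nuclear regions with no tRNA, snoRNA or snRNA gene within 100 bp it was 1.73%. The second value is the nearer background, because the divergent regions were chosen with that same distance rule. Gaps between same-strand neighbours, taken with the same limits, held 1195 pooled regions, of which 31 (2.59%, interval 1.83% to 3.66%) were reproducible. Gaps between convergent genes, which end towards each other and hold no gene start, held 242 regions, of which 6 (2.48%, interval 1.14% to 5.30%) were reproducible. Taken over all gap lengths, the interval of the divergent regions did not overlap those of the other orientations. The difference was not tested, since regions are not replicates of a condition. The intervals cover counting error only.

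Counted by gap, 51 of 2449 divergent pairs (2.08%) had a reproducible region, against 31 of 7233 same-strand gaps (0.429%) and 6 of 2135 convergent gaps (0.281%). A region of the pooled list stood in 620 divergent gaps (25.3%), in 14.8% of the same-strand gaps and in 10.4% of the convergent ones. These shares per gap were not matched for gap length, which was not compared between the orientations. Most of the 620 divergent gaps held a single region (532 pairs), 79 held a pair of them and 9 held 3. Some second regions overlapped a reproducible region, as in K12H4.6/K12H4.5, nhr-86/lbp-9 and gmps-1/cap-2. Such regions are counted below among the divergent regions outside the reproducible list. The orientations also differed in base composition at the summit, with a median GC content within 50 bp of 41.6% in divergent, 36.6% in same-strand and 34.7% in convergent gaps. Its part in the difference between orientations was not tested beyond the classes of GC content given further on.

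The reproducible share changed little with the length of the gap. It was 6.82% in gaps under 250 bp (3 of 44), 8.82% from 250 to under 500 bp (15 of 170), 6.996% from 500 to under 1000 bp (17 of 243) and 6.54% from 1000 to under 2000 bp (17 of 260). All 4 intervals overlapped. Gaps under 250 bp held a region of either kind less often (11.9% of 369 pairs) than the longer classes, which ranged from 26.6% to 30.7%. By chromosome, the share was highest on III (15 of 138, 10.9%) and lowest on X (2 of 57, 3.51%), and the intervals of those chromosomes, 6.70% to 17.2% and 0.968% to 11.9%, overlapped.

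**Figure D1:**
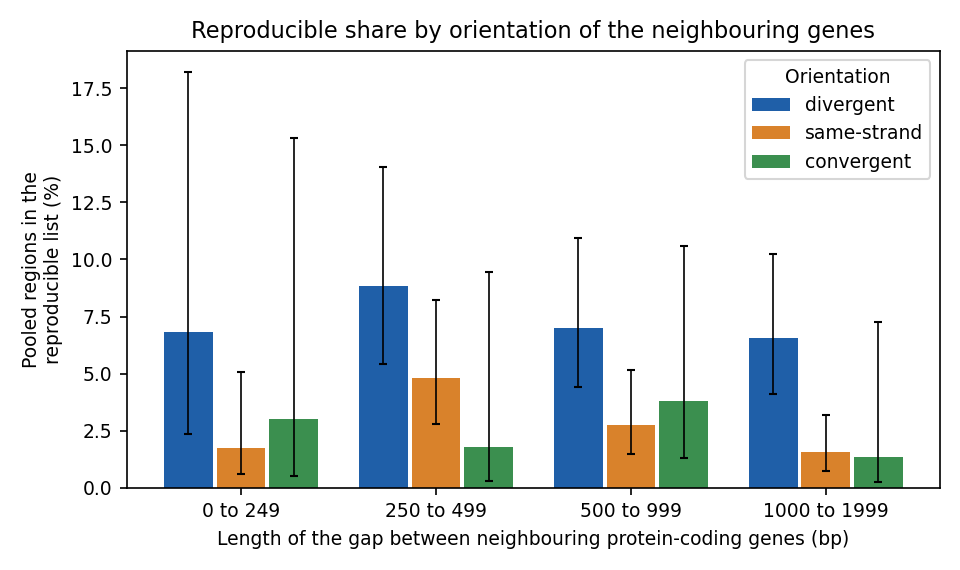
Share of pooled regions in the reproducible list (y axis, percent) by length of the gap (x axis, bp) for divergent, same-strand and convergent neighbours; bars are shares and error bars are 95% Wilson intervals. The divergent bars stand between 6.54% and 8.82% in the 4 length classes, while the same-strand bars stand between 1.55% and 4.82%.

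Signal is the authors' own value for each region, on a scale not given in the sources used here, and it was used only to rank and describe regions within a list. The reproducible list consisted of the 621 pooled regions with the highest signal, so a higher signal in its members follows from the selection. The 52 reproducible regions ran from 68.3 to 294, with a median of 84.9 and quartiles of 74.9 and 104. The other 665 divergent regions ran from 17.0 to 67.5, with a median of 27.6. Of the 50 nuclear regions with the highest signal 2 were divergent regions, and of the highest 100 it was 5. Among all 16935 nuclear regions 717 were divergent, so these counts are not read as a scarcity at the top. The other 47 reproducible divergent regions stood below those ranks.

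K12H4.6/K12H4.5, a pair of genes without a described role here, had the highest signal of all divergent regions. The region lay on chromosome III from 8043832 to 8044116, with a pooled signal of 294, and with 174 in the replicate 1 list and 123 in the replicate 2 list. Its summit stood 0.67 of the way from the minus-strand start to the plus-strand start of a 1612 bp gap, 526 bp from the start of K12H4.5. It had rank 3 among all nuclear regions, and its signal was highest among the 52 in both replicate lists as well. K01G5.10/tasp-1 came next, and tasp-1 is a homologue of the protease taspase. This region (chromosome III from 10759127 to 10759391) had a signal of 257, with 152 and 105 in replicates 1 and 2, and its summit was 58 bp from the start of tasp-1 in a gap of 785 bp. These 2 regions stood well apart from the rest in the pooled list and in both replicate lists.

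larp-1/wip-1 followed with a signal of 156, with 95.2 and 63.6 in replicates 1 and 2 (chromosome III from 5018251 to 5018409). larp-1 encodes a La-related RNA-binding protein and wip-1 a partner of the actin regulator WASP. The summit stood 0.68 of the way across a gap of 989 bp. These 3 regions and those of prp-19/K10D2.5, F44E5.4/F44E5.5 and the stronger one of ecps-1/atx-2 were narrower than the usual width of 436 bp, whereas none of the 665 other divergent regions was.

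sec-61.G encodes a subunit of the channel that takes new proteins into the endoplasmic reticulum, and its gap with F32D8.7 had a signal of 132 (chromosome V from 10897110 to 10897545), with 71.2 and 60.2 in replicates 1 and 2. This summit lay 185 bp from the start of sec-61.G in a gap of 1292 bp. ears-2, named for a glutamyl-tRNA synthetase, and uncp-18 had starts only 92 bp apart, the shortest gap with a reproducible region. The signal there was 121 (chromosome IV from 390267 to 390702), with 62.0 and 58.7 in the replicates, and the summit was 17 bp from the start of ears-2. The region was thus wider than the gap, so it also covered the beginning of both genes.

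hsp-60 encodes the mitochondrial chaperonin, and its gap with Y22D7AL.10 had a signal of 119 (chromosome III from 1618905 to 1619340). The replicates gave 57.8 and 60.9, and the summit was 194 bp from the start of Y22D7AL.10 and 619 bp from that of hsp-60, in a gap of 813 bp. iff-2 encodes the translation factor eIF5A, and its gap with F54C9.14 had a signal of 106 (chromosome II from 8561199 to 8561634), with 63.2 and 40.6 in the replicates. Here the summit stood 50 bp from the start of iff-2 in a gap of 935 bp. In the gaps of sec-61.G, ears-2, hsp-60 and iff-2 the summit was nearer the minus-strand start, at places from 0.05 to 0.24.

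A non-coding RNA gene stood within 100 bp of the summit in another pair of high regions. E04F6.6/pcrg-1 (signal 131, with 83.2 and 50.4 in replicates 1 and 2, chromosome II from 7200142 to 7200577, 0.81 of the way across 984 bp) had mrpr-1, the gene for the RNA of RNase MRP. par-5/M117.3 (119, with 73.8 and 45.2, chromosome IV from 11821864 to 11822299, 0.56 of the way across 282 bp) had M117.11 and M117.12, and par-5 encodes a 14-3-3 protein. The RNA genes near reproducible summits are of the class ncRNA, which the distance rule did not cover. Non-coding RNA genes of any class stood within 100 bp of 9 of the 52 reproducible summits (17.3%). For the other summits it was 67 of 665 (10.1%), which included piRNA and microRNA genes. The second count is thus not of the class ncRNA alone. The other 7 reproducible cases were dad-1/tre-1, sec-61.B/trap-3, W01D2.3/srt-11, nhl-2/tag-340, dlc-1/nduf-2.2 (signal 75.1, with the dynein light chain gene dlc-1), dct-11/puf-9 and T10B5.4/cct-7. The part of these RNA genes in the signal was not tested, and without all regions near them the reproducible share was 6.71% (43 of 641).

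Splicing and ubiquitin genes were next in order. prp-19, a splicing factor, and K10D2.5 had a signal of 116 (chromosome III from 5172595 to 5172754, 63.2 and 49.5 in the replicates), with the summit 21 bp from the start of K10D2.5 and 654 bp from that of prp-19, in a gap of 675 bp. aka-1/ubc-6, with a ubiquitin-conjugating enzyme, had a signal of 113 (chromosome II from 7478695 to 7479130), 0.58 of the way across 650 bp. Its signal was 69.9 in replicate 1, and the replicate 2 list had no summit within 100 bp. A second pooled region overlapped it at 0.88 of the way, with a signal of 64.8 and replicate values of 29.8 and 46.7, just outside the reproducible list. So both replicate lists had a summit in this gap, but the replicate 2 summit was near the weaker pooled region.

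R107.5/cls-2, with the microtubule-binding protein CLASP, had a signal of 108 (65.9 and 40.1 in replicates 1 and 2, chromosome III from 9053794 to 9054229, 0.18 of the way across 1258 bp). supr-1/dnj-28, with a DnaJ co-chaperone, had 106 (57.7 and 45.0, chromosome I from 2996175 to 2996610, 0.83 of 574 bp). gmps-1/cap-2, with GMP synthase and an actin-capping subunit, had 104 (69.0 and 36.0, chromosome II from 10868726 to 10869161, 0.47 of 476 bp), and its summit was near the middle. nhr-86/lbp-9, with a nuclear hormone receptor and a lipid-binding protein, had 102 (47.2 and 59.4, chromosome V from 2067953 to 2068388, 0.83 of 1599 bp). In this last gap the replicate 2 value was the higher one, as it was for hsp-60 and unlike the other 12 of these 15 regions with both values. The lists were made separately, so this order does not show a difference in binding between replicates.

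**Figure D2:**
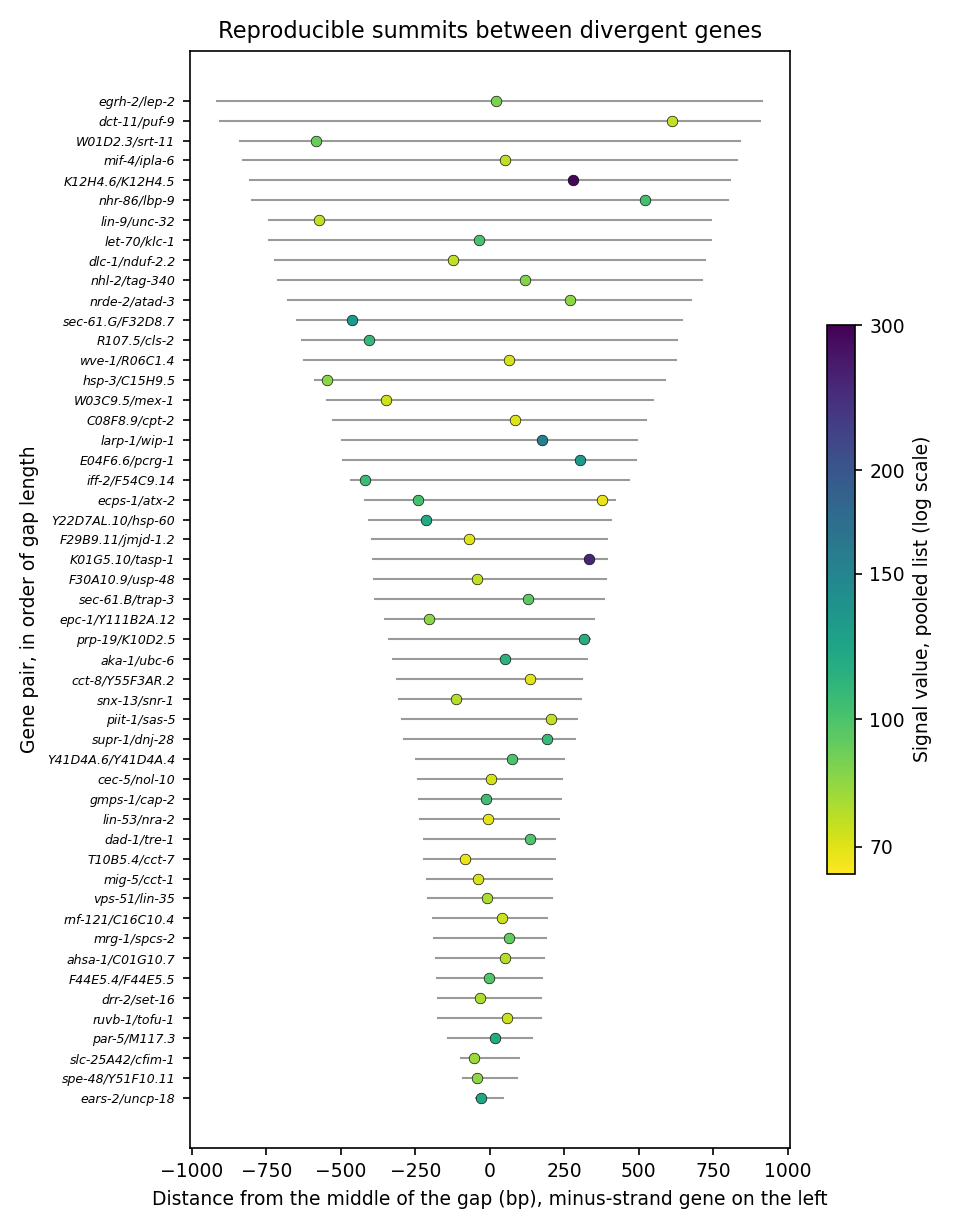
The 51 gaps with a reproducible region, drawn as lines centred on the middle of the gap (x axis, bp) and ordered by length (y axis, gene pair), with each summit as a point coloured by pooled signal on a log scale. Summits lie at places from 0.04 to 0.97 of the gap, and ecps-1/atx-2 is the single pair with more than 1 point.

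The pair ecps-1/atx-2, with the ataxin-2 homologue atx-2, was the single gap with more than 1 reproducible region. The stronger lay 179 bp from the start of ecps-1 with a signal of 102 (60.5 and 34.5 in replicates 1 and 2). The weaker lay 42 bp from the start of atx-2 with a signal of 68.7 (26.8 and 43.0). Thus each start of this 838 bp gap was the nearer one for a reproducible region. Within the replicate 1 list the region near ecps-1 had the higher value, and within the replicate 2 list the region near atx-2.

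Chaperone genes recurred among the reproducible pairs. Of 21 chaperone genes with a pooled region in their divergent gap, 6 had a reproducible one (28.6%), against 102 of 1240 genes of all such pairs (8.23%). In this and the other lists a region counted for both genes of its gap, whichever start was nearer. The lists were chosen with earlier results of these data known, and no test of this difference was made. Beside hsp-60 and dnj-28 they were hsp-3 (signal 84.8), the BiP chaperone of the endoplasmic reticulum, and 3 subunits of the cytosolic chaperonin, cct-1 (71.1), cct-8 (69.6) and cct-7 (68.3). The cct regions were close to the lowest signal in the list. The summits were 249, 447 and 302 bp from the starts of these cct genes, and each was nearer the start of the partner gene (mig-5, Y55F3AR.2 and T10B5.4). cct-2 and cct-5, for further subunits of this chaperonin, had a pooled region that was not reproducible. The gap of F44E5.4 and F44E5.5, which are genes of the Hsp70 family outside the list's name pattern, had a signal of 98.6 with the summit in the middle (0.49 of 351 bp). These genes are close copies of each other, so reads from them could be shared, and the region is reported as uncertain.

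Genes of the endoplasmic reticulum recurred among the names. With sec-61.G, hsp-3 and dnj-28 they were sec-61.B and trap-3, which face each other across 770 bp (signal 95.7), dad-1 (98.9), a subunit of the enzyme that attaches sugars to new proteins, and spcs-2 (94.1), a signal peptidase subunit. The group was formed after these names were seen, so its count carries no weight. trap-2 and trap-4 of the same group had a pooled region that was not reproducible. In the wider list of membrane trafficking genes, 4 of 25 genes had a reproducible region (16.0%), namely sec-61.B, sec-61.G, snx-13 (77.0) and vps-51 (78.8).

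The other lists had few members or none. Splicing and mRNA processing had 2 of 11 (prp-19 and snr-1, an Sm protein that shares its gap with snx-13), and histones and chromatin 2 of 19 (set-16 at 78.8, a histone methyltransferase, and jmjd-1.2 at 69.99, a histone demethylase). Translation factors had 1 of 12 (iff-2), aminoacyl-tRNA synthetases 1 of 6 (ears-2), proteasome and ubiquitin 1 of 13 (ubc-6), transcription factors 1 of 14 (nhr-86) and chemoreceptors 1 of 20 (srt-11, in a gap with a signal of 92.3). The summit in that last gap was 1423 bp from srt-11 and 254 bp from its partner W01D2.3. None was reproducible among 17 nuclear pore and transport genes, 15 of DNA replication and the cell cycle, 9 of the mitochondrial ribosome, 8 of the respiratory chain, 4 of RNA polymerases, 4 neuropeptide and 3 collagen genes. Beside a background of 8.23%, a count of 0 in lists of so few genes says little.

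Several chromatin and cell-fate regulators were also among the pairs, named after their values were seen. lin-35, the retinoblastoma homologue, shared a gap with vps-51 (78.8), and lin-9 (with unc-32, 75.1) and lin-53 (with nra-2, 69.1) encode partners of the same complex. mrg-1 faced spcs-2 (94.1), and epc-1 (85.0), cec-5 (72.0) and ruvb-1 (73.6) encode further proteins with chromatin roles. nrde-2 (84.7), which acts in nuclear RNA interference, and tofu-1 (the partner of ruvb-1), which acts in the making of piRNAs, represent small-RNA pathways. RNA-binding proteins of germline and soma included larp-1, atx-2, mex-1 (73.1), puf-9 (74.9) and nhl-2 (86.5). Each signal is that of the gap and not of the named gene alone. The summit was nearer the partner's start for lin-35, mrg-1, cec-5, ruvb-1, nrde-2, larp-1, mex-1 and nhl-2. It was nearer the named gene for lin-9, lin-53, epc-1, tofu-1 and puf-9, and the gap of atx-2 had both kinds. These genes are a description of the pairs and were not counted against a background.

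The remaining pairs had signals from 70.5 to 101.1. From the highest they were let-70/klc-1 (101.1), Y41D4A.6/Y41D4A.4, egrh-2/lep-2, spe-48/Y51F10.11, slc-25A42/cfim-1, ahsa-1/C01G10.7, mif-4/ipla-6, F30A10.9/usp-48, piit-1/sas-5, rnf-121/C16C10.4, wve-1/R06C1.4 and C08F8.9/cpt-2 (70.5). let-70 is a ubiquitin-conjugating enzyme, klc-1 a kinesin light chain, cfim-1 a subunit of an mRNA cleavage factor, sas-5 a centriole protein and cpt-2 a carnitine palmitoyltransferase. The partners not yet named of genes given above are Y111B2A.12 (epc-1), C15H9.5 (hsp-3), atad-3 (nrde-2), drr-2 (set-16), nol-10 (cec-5), W03C9.5 (mex-1), F29B9.11 (jmjd-1.2).

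At the threshold the divergent regions formed a continuum. The lowest reproducible ones, T10B5.4/cct-7 and ecps-1/atx-2, had signals of 68.3 and 68.7. Just outside the list were F09E5.11/bmy-1 (67.5), the second region of nhr-86/lbp-9 (65.7), tag-65/ccz-1 (65.6), the second region of aka-1/ubc-6 (64.8) and cids-2/phip-1 (64.7). Their replicate values were 38.8 and 26.9 for F09E5.11/bmy-1, 31.6 and 32.3 for nhr-86/lbp-9, and 31.3 and 27.2 for cids-2/phip-1. These lay inside the range of the reproducible regions in the same lists. For tag-65/ccz-1 the replicate 1 value was 54.0 and the replicate 2 list had no summit within 100 bp.

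The reproducible summits lay at a median place of 0.51 of the gap, with quartiles of 0.30 and 0.67. Of the 52, 31 (59.6%) lay between 0.25 and 0.75 of the way across, against 332 of the 665 other summits (49.9%). Among the regions in the upper part of the reproducible list, above its median signal, it was 10 of 23 (43.5%). The nearer gene start was a median of 187 bp away (quartiles 124 and 282, range 17 to 895), against 164 bp for the others. Summits within 100 bp of a start were 11 of 52 (21.2%) against 196 of 665 (29.5%), and summits over 500 bp from either start 7 of 52 (13.5%) against 41 of 665 (6.17%). The median reproducible summit was thus not nearer an annotated start than that of the other divergent regions, and no difference in place was tested.

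The strands were used about equally, with 27 reproducible summits nearer the plus-strand start and 25 nearer the minus-strand start. Both starts were within 500 bp of the summit in 25 of 52 cases (48.1%), against 308 of 665 (46.3%). Among the 717 regions the rank correlation of gap length with signal was -0.17, and among the 52 that of place in the gap with signal was 0.04. These correlations are across regions of 1 list, which share their libraries, and are given as a description. A gene that opened an operon-like run, meaning a series of neighbours on 1 strand less than 500 bp apart, was in 23 of the 51 pairs (45.1%) and in 269 of 569 pairs with only other regions (47.3%). Both genes opened such a run in 9 of the 51 (17.6%) against 49 of the 569 (8.61%). Over all 2449 divergent pairs the shares were 34.4% with such a gene and 5.72% with both, below those of either group.

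**Figure D3:**
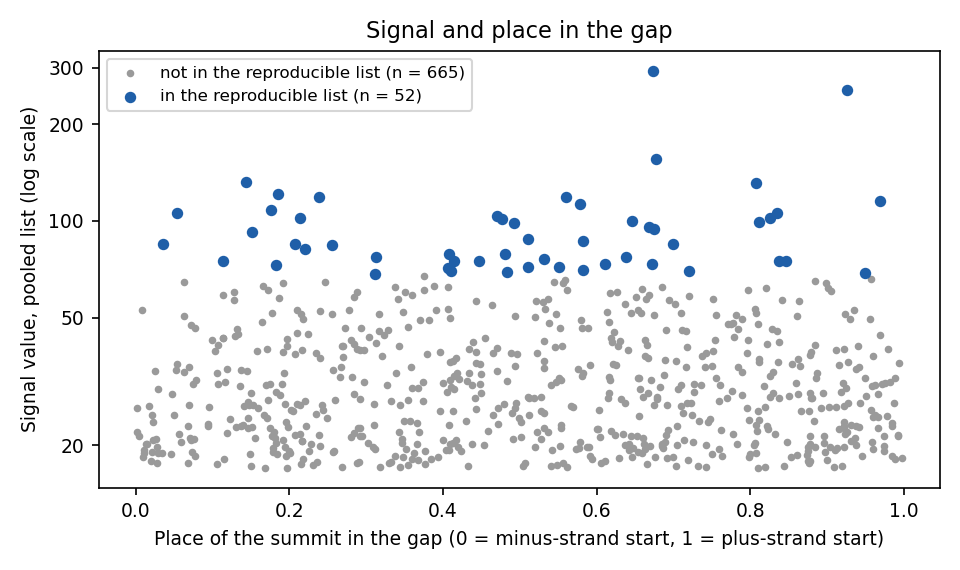
Pooled signal (y axis, log scale) by place of the summit in its gap (x axis, 0 at the minus-strand start and 1 at the plus-strand start) for 52 reproducible (blue) and 665 other (grey) divergent regions. Blue points run from 68.3 to 294 across the whole gap, with 31 of them between 0.25 and 0.75.

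Both replicates had a summit within 100 bp of 48 of the 52 reproducible summits (92.3%). For other divergent regions this held for 235 of 665 (35.3%), and 64 of those had no summit in either replicate list. The reproducible list was selected on signals pooled from the same replicates, so nothing is read from this contrast. F30A10.9/usp-48 and W03C9.5/mex-1 had a summit in replicate 2 alone, and aka-1/ubc-6 and C08F8.9/cpt-2 in replicate 1 alone. Among all nuclear reproducible regions the share with both was 95.2%, close to that of the divergent ones. Replicate 1 values of the 52 ran from 24.4 to 174 with a median of 51.2 (n = 50), and replicate 2 values from 15.9 to 123 with a median of 39.5 (n = 50). The lists were made separately, so a lower median in replicate 2 does not show less binding.

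Of the 52 reproducible regions, 42 were among the 621 highest signals of the replicate 1 list and 30 among those of the replicate 2 list, with 23 in both. These counts follow in part from the selection on pooled signal and are a description. Starting anew from each replicate list by the same rule on gaps, 61 of 818 divergent regions (7.46%) were among the 621 highest in replicate 1 and 38 of 633 (6.003%) in replicate 2. The shares over all nuclear regions of those lists were 3.08% and 3.41%. Both include regions near tRNA, snoRNA and snRNA genes, and the share away from these genes was not counted for the replicate lists. By gene pair, 60 pairs had such a region in replicate 1, of which 43 were among the 51 pairs (71.7% of the 60 and 84.3% of the 51). In replicate 2 there were 38 pairs, with 31 shared (81.6% of the 38 and 60.8% of the 51), and all 25 pairs called in both lists were among the 51. The rank order of signals was only loosely kept between replicates. The Spearman correlation was 0.22 over the 48 reproducible regions and 0.53 over the 283 divergent regions with both values. The Pearson correlation of log values was 0.44 over the 48 and 0.62 over the 283. The 48 were selected on signals pooled from the same replicates, so nothing is read from their lower values. The points of both sets share 2 libraries.

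**Figure D4:**
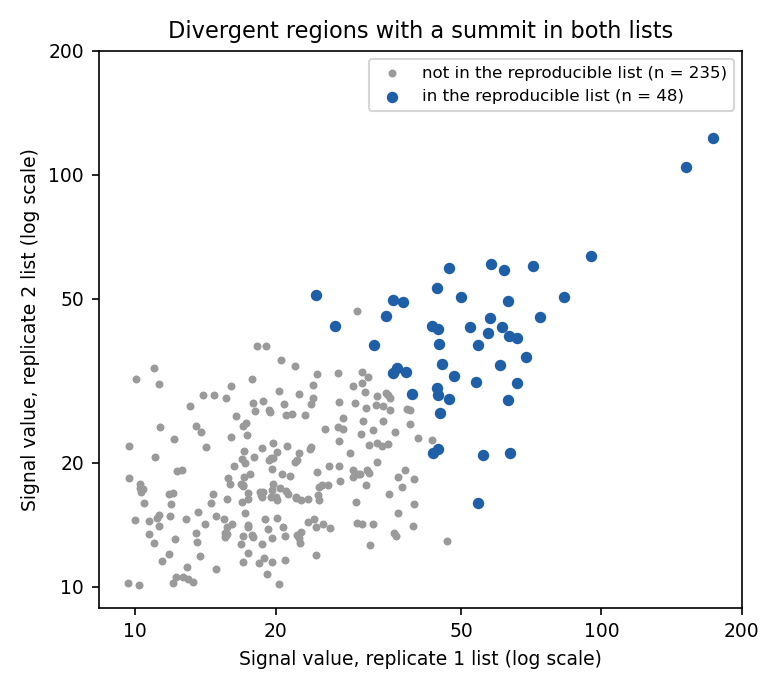
Signal in the replicate 2 list (y axis, log scale) against signal in the replicate 1 list (x axis, log scale) for 48 reproducible (blue) and 235 other (grey) divergent regions with a summit in both lists. K12H4.6/K12H4.5 (174 and 123) and K01G5.10/tasp-1 (152 and 105) stand apart at the upper right, and the other blue points form 1 cloud.

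The reproducible summits were rich in G and C. Within 50 bp of the summit the median GC content was 54.0% (quartiles 47.3% and 56.4%, range 35.6% to 68.3%), against 40.6% (31.7% and 47.5%) at the other divergent summits. All nuclear regions had a median of 40.6%, and the nuclear reproducible regions away from tRNA, snoRNA and snRNA genes one of 49.5%. None of 223 divergent regions with a GC content under 35% was reproducible. The share was 4.50% (10 of 222) from 35% to under 45%, 9.76% (20 of 205) from 45% to under 55% and 32.8% (22 of 67) at 55% or more. Over all nuclear regions away from tRNA, snoRNA and snRNA genes the shares in the same 4 classes were 0.375%, 1.25%, 3.22% and 4.32%, so the absence under 35% was near the background. Across the 717 regions the rank correlation of GC content with signal was 0.37, and within the 52 it was 0.03.

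Shares by orientation were also set out in each class of GC content. Under 35% they were 0 of 223 in divergent, 1 of 538 in same-strand and 1 of 128 in convergent gaps. From 35% to under 45% the share was 4.50% in divergent, 1.63% (6 of 367) in same-strand and 3.90% (3 of 77) in convergent gaps. From 45% to under 55% the 3 orientations were close, with 9.76% in divergent, 8.48% (19 of 224) in same-strand and 2 of 25 in convergent gaps. At 55% or more it was 32.8% in divergent gaps against 7.58% (5 of 66) in same-strand gaps and 0 of 12 in convergent gaps. Counts in several of these classes are small, and no difference was tested. The classes were chosen after the data were seen, and whether GC content itself changes recovery in the immunoprecipitation or sequencing was not tested.

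**Figure D5:**
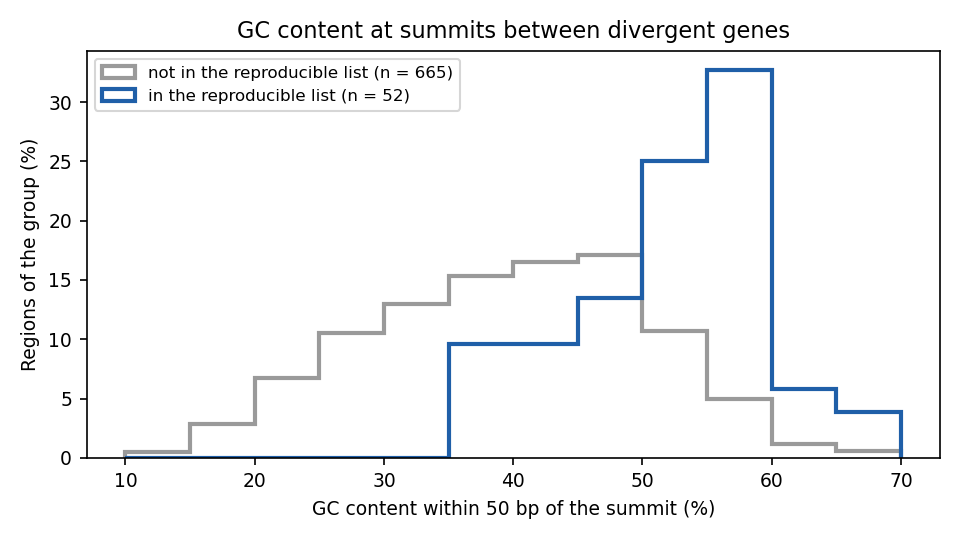
Share of regions (y axis, percent of the group) by GC content within 50 bp of the summit (x axis, percent, in steps of 5 points) for 52 reproducible (blue) and 665 other (grey) divergent regions. The blue outline begins at 35% and peaks from 55% to 60%, while the grey outline is broad, with a median of 40.6%.

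Short sequences were counted within 50 bp of the summits on either strand. AGACGCAG was noticed in these same regions, and of the sequences above only that of sec-61.G/F32D8.7 holds it. AGACGCAG was at 6 of the 52 reproducible summits (11.5%) and at 23 of the 665 others (3.46%). It was at 2.00% of the nuclear regions away from tRNA, snoRNA and snRNA genes, and at 14 of 228 reproducible ones among these outside divergent gaps (6.14%). Within 100 bp it was in 7 reproducible divergent regions (13.5%) and in 39 of the 665 others (5.86%). In the same window it was in 3.32% of the nuclear regions away from those RNA genes. Among the 228 reproducible ones outside divergent gaps it was in 22 (9.65%). The 8 sites in the 7 reproducible divergent regions are printed along the strand of the match, with AGACGCAG in capitals. On each side 11 bases are given to show what flanks it. They lie at chrV:10897343-10897372 (plus strand), chrIII:9054092-9054121 (plus), chrIII:10460717-10460746 (minus), chrIV:1745821-1745850 (minus), chrII:11759495-11759524 (plus), chrX:6092143-6092172 (plus), chrIII:13643702-13643731 (plus) and chrIII:13643769-13643798 (plus), in the order shown.
sec-61.G/F32D8.7: gtggaaacgagAGACGCAGacgtccaagag
R107.5/cls-2: gctacggttagAGACGCAGacagctaaacg
ecps-1/atx-2: acgatgaagagAGACGCAGactgaaaataa
Y41D4A.6/Y41D4A.4: gtggcggagagAGACGCAGagaaattgggg
F44E5.4/F44E5.5: gctggcaacagAGACGCAGattgttggagg
hsp-3/C15H9.5: gcagcgcgcagAGACGCAGagtcattcggc
drr-2/set-16: cagtgccagagAGACGCAGtgcggcagaga
drr-2/set-16: gcagcgcgtagAGACGCAGacatgtaacgc

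In all 8 sites the bases before the match were ag, so each was also a match to AGAGACGCAG. This longer sequence was within 50 bp of 6 reproducible summits (11.5%), of 9 of the 665 other divergent summits (1.35%) and of 0.956% of the nuclear regions away from tRNA, snoRNA and snRNA genes. Among the 228 reproducible regions away from these genes and outside divergent gaps it was at 10 (4.39%), so it was not confined to divergent gaps. It was picked from these same regions, so its share there is a description. The middle of the site lay from 8 bp before to 30 bp after the summit in the 6 regions. Their pairs were sec-61.G/F32D8.7, ecps-1/atx-2 (the stronger region), Y41D4A.6/Y41D4A.4, F44E5.4/F44E5.5, hsp-3/C15H9.5 and drr-2/set-16.

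The other sequences were counted in the same 4 sets of regions. ACGCGC was at 9 of 52 reproducible divergent summits (17.3%), at 9.77% of the other divergent summits, at 3.22% of the nuclear regions away from tRNA, snoRNA and snRNA genes, and at 25 of the 228 reproducible regions outside divergent gaps (10.96%). CGCG, which ACGCGC contains, was at 30 of 52 (57.7%), and in the other sets at 35.5%, 16.7% and 39.0%. GGCGCA was at 6 of 52 (11.5%), and in the other sets at 7.22%, 3.48% and 7.89%. For these 3 sequences the reproducible regions outside divergent gaps thus stood nearer the reproducible divergent ones than all nuclear regions did. The same held for the other divergent regions. These sequences are rich in G and C, and GC content at the summit differed between kinds of regions, as given above. No count of a short sequence was matched for GC content. CACTCG was at 2 of 52 (3.85%), against 3.76%, 2.94% and 10.5% in the other sets, so it was less frequent here than at the other reproducible regions. GTTCGA was at 3 of 52 (5.77%), against 3.91%, 3.86% and 6.14%. None of these differences was tested. A match is a description of these letters in the window and was not tested as a site of any factor.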

How the data were processed

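The authors deposited lists of regions on ce11 for each replicate, for both pooled, and for the reproducible regions. In each, the deposited signal value and −log10 q-value of a region are those of the authors' peak caller, and the summit is a deposited offset from the region's start. Per the deposited descriptions, the reproducible list came from an IDR step on the other lists. For the aligner, caller, IDR threshold and signal scale, nothing was given in the sources used here, and the lists hold no read counts, so depth is unknown.

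Coordinates are 1-based. Gaps came from Ensembl release 115 (WBcel235) as stretches between merged neighbouring protein-coding genes. Summits within 100 bp were counted as shared. The place, GC content, short sequences and shares with 95% Wilson intervals were computed with Python 3.11.15 and SciPy 1.17.1. In simulated data with 59 planted regions all were found. The simulated gene pairs stood far apart and the same rule defined the planted regions. The simulation thus checks the code and not gaps among crowded or overlapping genes. No test was made, because there is 1 group of 2 replicates. Lists on ce10 were not used. All pairs with a reproducible region were named, the 15 highest with full values. The members, gene lists and short sequences were chosen with earlier results of these data known.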

Additional observations from a re-analysis of the deposited data

How the results depend on the processing

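Each of 5 results was recomputed under 12 alternatives: other limits on gap length and small RNA genes, ribosomal pairs kept, start codons as gene starts, another order of neighbours, the reproducible list above its median signal, other distances for shared summits, and each replicate list alone. The reproducible share (7.25%) ranged from 3.21% to 8.47% and the number of pairs (51) from 23 to 62. Restricting the list to regions above its median signal lowered by construction the share to 3.21% and the pairs to 23 and raised the median signal from 84.9 to 106, and it put 43.5% of summits between 0.25 and 0.75 of the gap instead of 59.6%; the cause of the last change was not tested. Without the filter on small RNA genes the median signal was 92.3. With summits within 200 bp counted as shared, 57 regions in 51 pairs counted as reproducible. All of them (100%) had a summit in both replicate lists, instead of 92.3% of the 52. The 57 are more than the 52 members of the authors' reproducible list, so these percentages cover different sets of regions. Leaving out a replicate, the median signal was 43.2 to 47.2 on the scale of the single lists, the share 6.003% to 7.46% and the pairs 38 to 60. No paired analysis was possible because there is a single group. The unknown depth and the lack of a comparison with control material limit what the signal values can show.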
